A study of Mus musculus with 9 samples.

Results

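The genes on either side of the olfactory Taar cluster on mouse chromosome 10 were examined in mice lacking TAAR enhancer 1, to ask how far from the cluster the effect of the deletion could be seen. The members were 10 listed genes, Rps12, Slc18b1, Vnn3, Vnn1 and Taar1 on the side of the enhancer and Stx7, Moxd1, Ctgf, Enpp1 and Enpp3 on the side of Taar9, out of 24421 gene rows in the count table. All 10 had a row, and 9 reached the minimum of 10 reads summed over the libraries that was needed for a test. Taar1 did not. RNA was taken from the whole main olfactory epithelium (MOE), the tissue of the nasal cavity that holds the olfactory sensory neurons, of littermates labelled as C57BL/6 at postnatal day 14, as 3 wild type, 3 heterozygous and 3 homozygous libraries. The line descends from 1 founder in which CRISPR-Cas9 had removed TAAR enhancer 1, which lies in noncoding DNA between the Taar1 and Taar2 genes, so every cell of a mutant carries the deletion and no other engineered allele is named. The study's reporting summary gives a mixed C57BL/6J and 129 background and older mice for this line, which differs from the sample labels and was not resolved.

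Trace amine-associated receptors (TAARs) detect volatile amines, and all of them but Taar1 serve as olfactory receptors, each in a small set of olfactory sensory neurons. Enhancers are stretches of noncoding DNA that raise transcription from promoters at a distance, often passing over some genes and acting on others, so the genes around a cluster are the natural place to look for the limits of an enhancer's range. The flanking genes here have unrelated roles. They encode a ribosomal protein, a polyamine transporter, vitamin-recycling enzymes, an endosomal fusion protein, a copper monooxygenase, a matricellular protein and ectonucleotidases.

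On GRCm38 the region ran from the Rps12 gene at chr10:23785183-23787275 to the end of the Enpp3 gene at chr10:24772406-24842823, a stretch of 1058 kb. Moving toward the enhancer from Rps12, the next genes were Slc18b1 at chr10:23796986-23827968, Vnn3 at chr10:23851462-23869843 and Vnn1 at chr10:23894688-23905343. Taar1, a single-exon gene at chr10:23920356-23921469, was the last before a gap of 17.1 kb that holds the enhancer and ends at Taar2. The cluster of olfactory receptors, which begins with Taar2 and ends with Taar9, filled the next 171 kb, and 39.8 kb beyond Taar9 came Stx7 at chr10:24149302-24190222. Moxd1 followed at chr10:24223517-24302790. After 293 kb without a listed gene came Ctgf at chr10:24595442-24598683, named Ccn2 in the annotation, and Enpp1 at chr10:24637914-24712159. Rps12, Enpp1 and Enpp3 lie on the minus strand and the other 7 on the plus strand. Distances below are from a gene's body to the nearer edge of the 17.1 kb gap, so that the distance to the enhancer itself is larger by up to the length of the gap.

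The 250 bases before the start of Slc18b1, of Stx7 and of Taar2 are shown because Slc18b1 and Stx7 are the nearest well-measured genes on either side and Taar2 is the first gene beyond the gap. They are RefSeq sequences on GRCm38.p6, plus strand, 5′ to 3′, with each CCAAT and TATAAA, on either strand, in capitals. The windows are chr10:23796736-23796985, chr10:24149039-24149288 (the first of 2 listed starts of Stx7) and chr10:23938322-23938571.
Slc18b1: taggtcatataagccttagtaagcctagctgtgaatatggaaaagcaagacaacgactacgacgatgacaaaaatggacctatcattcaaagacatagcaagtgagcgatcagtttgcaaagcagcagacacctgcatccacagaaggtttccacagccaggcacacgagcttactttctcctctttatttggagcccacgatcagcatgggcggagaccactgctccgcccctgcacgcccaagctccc
Stx7: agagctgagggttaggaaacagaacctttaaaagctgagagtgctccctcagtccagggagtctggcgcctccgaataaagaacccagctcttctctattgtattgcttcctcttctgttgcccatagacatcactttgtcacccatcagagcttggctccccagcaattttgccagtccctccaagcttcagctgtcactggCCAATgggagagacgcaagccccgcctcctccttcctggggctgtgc
Taar2: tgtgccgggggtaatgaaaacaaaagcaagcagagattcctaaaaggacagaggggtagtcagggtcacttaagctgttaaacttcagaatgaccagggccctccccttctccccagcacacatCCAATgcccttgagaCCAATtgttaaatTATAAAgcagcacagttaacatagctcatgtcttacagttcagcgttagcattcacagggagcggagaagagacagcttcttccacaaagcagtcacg

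RefSeq windows were matched for 7 of the 10 flanking genes (Rps12, Slc18b1, Vnn3, Stx7, Moxd1, Enpp1 and Enpp3). The letters TAATTA, the core bound by LIM-homeodomain factors such as Lhx2, and the palindrome of the EBF factors (TCCC and GGGA around 2 free bases) were searched on both strands, together with TATAAA and CCAAT. Neither TAATTA nor the EBF palindrome was present in the window of any of the 7 genes, and they were present in 4.84% and 0.779% of all 32851 windows of the same length. CCAAT was found 3 times before Vnn3 and 1 time before each of Stx7, Moxd1 and Enpp3, against 33.8% of all windows with a match. TATAAA was found before Enpp3 alone among the flanking genes and in 12.4% of all windows. Among the olfactory Taar genes with a window, TAATTA was found 1 time, before Taar8b alone, and the EBF palindrome was absent from all. The Taar2 window thus held neither of them, and it held TATAAA 1 time and CCAAT 2 times. All windows were placed by the listed start of a gene. Whether transcription begins at those starts was not checked, for the Taar genes in particular. An absence of a motif therefore holds for the window and need not hold for the promoter.

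The libraries held from 24583906 to 32631951 reads assigned to genes, and 3 reads are worth 0.0919 CPM (counts scaled to a common library size) in the deepest and 0.122 CPM in the shallowest. These limits and all others from read numbers cover counting error only. The 7 marker genes of olfactory sensory neurons, Omp and Gnal among them, were all detected. They summed to between 7106 and 7179 CPM in wild type, 7168 and 7655 CPM in heterozygous and 7360 and 7890 CPM in homozygous libraries. Every homozygous library was thus above every wild type library, and 15.4% of all genes tested had no overlap between these groups. None of the 7 genes was called by edgeR, and the cause of the difference was not tested. Receptor genes of the vomeronasal organ, a neighbouring sense organ, stood apart in 3 libraries, with a sum of 68.1 CPM in heterozygous replicate 1, of 120 CPM in homozygous replicate 2 and of 69.5 CPM in homozygous replicate 3. The other 6 libraries held between 14.6 and 17.3 CPM of them. Some differences of flanking genes stated with their SE moved by over 1.5 times without those 3 libraries. Their values without them are given beside the result or in the closing section.

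The targeted locus was checked first. Taar2, Taar3, Taar4 and Taar5 summed to 9.11, 10.3 and 9.20 CPM in the wild type libraries and to 6.27, 6.54 and 5.34 CPM in the heterozygous libraries. In the homozygous libraries they summed to 0.106, 0.0406 and 0.0387 CPM, which is between 1 and 3 reads. Taar9 is the last gene of the cluster and the last counted gene before Stx7. It stood at 3.09, 2.69 and 2.67 CPM in wild type, at 3.06, 2.23 and 1.89 CPM in heterozygous and at 0.106, 0.203 and 0.193 CPM in homozygous libraries. The homozygous libraries did not overlap with any other library for either measure, as their labels require.

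None of the 9 flanking genes tested was called in homozygous against wild type mice by edgeR's quasi-likelihood test (adjusted p under 0.05 over all 20213 genes tested), where 0.0495% of all genes were called. None was called in heterozygous against wild type mice either, where 0.00495% of all genes were called. The same count of 0 held for homozygous against heterozygous mice and for any difference among the genotypes, with 0.114% and 0.0643% of all genes called. With so few genes called anywhere in the genome, a count of 0 among 9 is near what all genes show, and the intervals given below say more about each gene. At an unadjusted p under 0.05, 0 of the 9 passed in homozygous against wild type mice, beside 9.26% of all genes. In each of the other 3 comparisons 1 of the 9 passed, each time Ctgf, beside 3.25% of all genes in heterozygous against wild type, 10.4% in homozygous against heterozygous and 8.45% for any difference. DESeq2 gave an adjusted p to 5 flanking genes in homozygous against wild type mice and to all 9 in heterozygous against wild type mice, and called 0 in both, beside 0.781% and 0.0148% of the genes with an adjusted p. It called Ctgf, 1 of 5, in homozygous against heterozygous mice and, 1 of 7, for any difference, beside 1.05% and 0.773% of such genes. The heterozygous and homozygous comparisons share the wild type libraries and are not independent of each other.

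**Figure D1:**
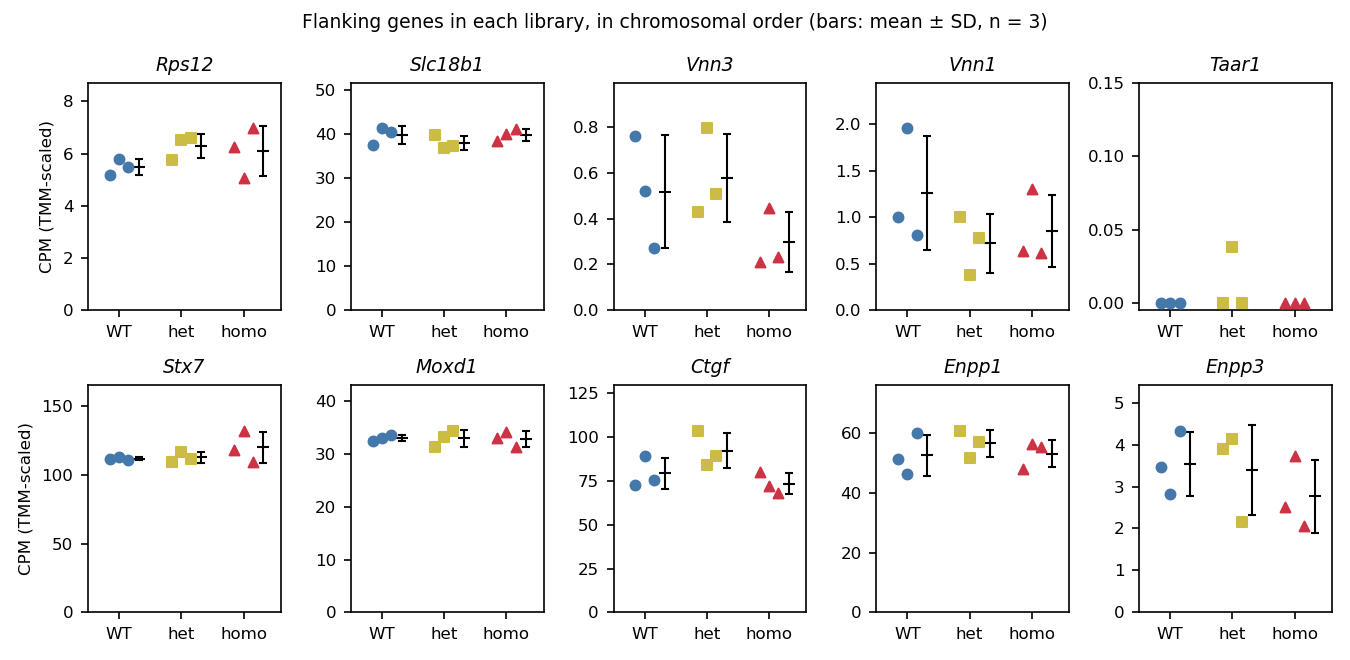
TMM-scaled CPM of each flanking gene (y axes, each with its own range) in every library by genotype (x axes), in chromosomal order; black bars give the mean ± SD of 3 libraries, and Taar1 has no bar. The 3 genotypes overlap in every panel except that for Ctgf, where all heterozygous libraries lie above all homozygous libraries; Taar1 has 1 read in 1 library.

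On the enhancer's own side, Taar1 is the nearest gene and ends where the gap begins. Taar1 encodes a receptor for trace amines that is known from monoamine neurons of the brain rather than from the olfactory epithelium. Its reads numbered 0 in all wild type and all homozygous libraries, and 1 read was counted in heterozygous replicate 2. A count of 0 allows a level of up to 0.122 CPM in the shallowest library, which was homozygous. A fall of the nearest gene could therefore not be detected at this depth. A rise could be detected only above about that level, and none was counted in the homozygous libraries. Every stretch of 100 bases of the Taar1 transcript occurs in no other annotated gene.

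Vnn1 lies 16.1 kb and Vnn3 51.6 kb from the gap. Both encode pantetheinases, which split pantetheine into pantothenic acid, a vitamin, and cysteamine. Vnn1 stood at 1.00, 1.96 and 0.812 CPM in wild type, at 0.997, 0.378 and 0.778 CPM in heterozygous and at 0.634, 1.30 and 0.619 CPM in homozygous libraries. Wild type replicate 2 was the highest library and the genotypes overlapped. The log2 fold change of Vnn1 in homozygous against wild type mice was -0.60 ± 0.41 (SE, edgeR, adjusted p = 0.691), and its 95% interval ran from 0.361 to 1.21 times the wild type level. Without wild type replicate 2 the log2 fold change was -0.10. Without homozygous replicate 2 it was -1.02, with vomeronasal reads as a covariate -1.24, and without the 3 libraries high in vomeronasal reads -1.01. In heterozygous against wild type mice Vnn1 differed by -0.82 ± 0.41 on the log2 scale (adjusted p = 1.00). That value was -0.33 without wild type replicate 2 and -0.53 without heterozygous replicate 2. It was -1.05 without wild type replicate 3, -1.13 without heterozygous replicate 1 and -1.13 with vomeronasal reads as a covariate.

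Vnn3 was the lowest of the genes tested, with between 6 and 21 reads per library. Its levels were 0.763, 0.519 and 0.271 CPM in wild type, 0.427, 0.794 and 0.507 CPM in heterozygous and 0.211, 0.447 and 0.232 CPM in homozygous libraries. All 3 homozygous libraries were below wild type replicates 1 and 2, but wild type replicate 3 lay among them, so the groups overlapped. In homozygous against wild type mice Vnn3 had a log2 fold change of -0.80 ± 0.50 (adjusted p = 0.655), with an interval from 0.274 to 1.197 times the wild type level. Without wild type replicate 1 it was -0.45, and without the 3 libraries high in vomeronasal reads -1.27. Against heterozygous mice the homozygous difference was -0.96 ± 0.49 (adjusted p = 0.529), or -1.59 without those 3 libraries. Neither pantetheinase changed past the test, and a fall to 0.361 (Vnn1) or 0.274 (Vnn3) of the wild type level lies at the edge of what these reads allow. Other genes of pantetheine and coenzyme A metabolism, fixed as a list with the 2 pantetheinases (9 tested), included 0 called, with 3 higher and 6 lower in homozygous than in wild type mice and a median log2 fold change of -0.034, beside -0.00057 over all genes.

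Slc18b1, 93.5 kb from the gap, encodes a vesicular transporter of polyamines, and it was the nearest gene on the enhancer's side with enough reads for a narrow interval. It stood at 37.5, 41.4 and 40.6 CPM in wild type, at 39.9, 36.8 and 37.3 CPM in heterozygous and at 38.5, 39.99 and 41.3 CPM in homozygous libraries. The genotypes lay on top of each other, with means of 39.8 ± 2.04, 38.0 ± 1.67 and 39.9 ± 1.39 CPM (SD, n = 3). Between homozygous and wild type mice the log2 fold change of Slc18b1 was 0.0027 ± 0.059 (adjusted p = 0.993), and its interval ran from 0.919 to 1.09 times the wild type level. In the same homozygous libraries Taar2 to Taar5 together had 3 reads or fewer, while the low end of the interval for Slc18b1 was 0.919. Olfactory Taar reads come from small sets of neurons, and the cells that gave the Slc18b1 reads were not identified. The contrast is therefore no measure of the enhancer's range. The sign of the log2 fold change of Slc18b1 turned in some alternatives. The value was -0.063 with vomeronasal reads as a covariate and -0.050 without the 3 libraries high in vomeronasal reads. Of the other vesicular amine transporters, Slc18a1 had a log2 fold change of -0.51 (unadjusted p = 0.0222, adjusted p = 0.456 by edgeR) and Slc18a2 one of 0.056 in homozygous against wild type mice.

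Rps12, a protein of the small ribosomal subunit, lies 134 kb from the gap, beyond Slc18b1. It had 129, 190 and 142 reads in wild type, 162, 172 and 195 in heterozygous and 178, 125 and 180 in homozygous libraries, or 5.18, 5.80 and 5.49, then 5.77, 6.50 and 6.60, then 6.27, 5.08 and 6.96 CPM. Homozygous replicate 2 was the lowest library and homozygous replicate 3 the highest, so the spread within that genotype spanned all others. The log2 fold change in homozygous against wild type mice was 0.15 ± 0.13 (adjusted p = 0.789), with an interval from 0.911 to 1.36 times the wild type level. It was 0.27 without homozygous replicate 2, 0.048 without homozygous replicate 3 and 0.28 with vomeronasal reads as a covariate. Few reads of Rps12 transcripts can be told from those of its copies. Of all 100-base stretches of its 584-base coding transcript, 18.4% occur in no other annotated gene, and the rest occur in 20 others, most of them Rps12 pseudogenes. Between 16.9 and 19.4% of the reads of each library were set aside as mapping to several places. Per kilobase of exon Rps12 stood at 2.94 CPM, beside a median of 17.2 CPM per kb over 31 genes of the small subunit, where 9 had lower values still, and none of the 31 was called. Snora33 and Snord100, small nucleolar RNAs with rows of their own, lie inside the gene.

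On the far side of the cluster, Stx7 is the first counted gene beyond Taar9, 211 kb from the gap and 39.8 kb from Taar9. An annotated noncoding RNA gene, Gm40614 at chr10:24123214-24132480, lies between them and has no row of counts. Stx7 encodes syntaxin 7, a SNARE protein of late endosomes that drives their fusion with each other and with lysosomes. It stood at 112, 113 and 110 CPM in wild type, at 110, 117 and 112 CPM in heterozygous and at 118, 132 and 109 CPM in homozygous libraries. Homozygous replicate 2 was above all other libraries and homozygous replicate 3 was the lowest of all, so the homozygous group both exceeded and undercut the wild type group. Stx7 had a log2 fold change of 0.10 ± 0.058 in homozygous against wild type mice (adjusted p = 0.623), and the interval ran from 0.986 to 1.17 times the wild type level. Without homozygous replicate 2, the library with the most vomeronasal reads, it was 0.031, and without homozygous replicate 3 it was 0.16 (adjusted p = 0.611). Taar9 was called in the same comparison (log2 fold change -4.05 ± 0.32, adjusted p = 7.50e-06), so that the steep difference between Taar9 and Stx7 lay within 39.8 kb. The fall was not continuous along the cluster. By edgeR, Taar7f was not called (log2 fold change -0.19, adjusted p = 0.764) and Taar7e was higher (0.78, adjusted p = 0.0176). The 39.8 kb are therefore no measured limit of the enhancer's range. Across 8 SNARE genes of endosomes and the Golgi that were tested, Stx7 among them, 4 were higher and 4 lower in homozygous mice, their log2 fold changes lay between -0.097 and 0.10, and 0 were called.

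Moxd1, 285 kb from the gap, encodes a monooxygenase related to dopamine beta-hydroxylase. It stood at 32.3, 33.1 and 33.6 CPM in wild type, at 31.2, 33.2 and 34.4 CPM in heterozygous and at 33.0, 34.1 and 31.3 CPM in homozygous libraries. No other flanking gene varied so little among libraries of the same genotype, with a coefficient of variation of 3.92%. The log2 fold change in homozygous against wild type mice was -0.0081 ± 0.060 (adjusted p = 0.985), with an interval from 0.910 to 1.09 times the wild type level, and in heterozygous against wild type mice it was -0.0025 ± 0.060. Both signs turned in some alternatives, at values of at most 0.035. The other 3 genes of its enzyme family that were tested, Dbh, Moxd2 and Pam, had log2 fold changes of -0.34, -0.33 and -0.15 in homozygous against wild type mice. Of these, Pam, which amidates peptide hormones, had an adjusted p of 0.397 and Moxd2 of 0.451, and none of the 4 was called.

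Ctgf, 657 kb from the gap, was the only flanking gene with libraries of a pair of genotypes that did not overlap. It encodes connective tissue growth factor, a secreted matricellular protein of fibroblasts and endothelial cells. Its levels were 72.6, 89.5 and 75.8 CPM in wild type, 104, 84.4 and 89.0 CPM in heterozygous and 80.2, 71.9 and 68.3 CPM in homozygous libraries. The heterozygous libraries were all above the homozygous libraries, and the wild type libraries lay across both. The homozygous level was 0.796 times the heterozygous level (log2 fold change -0.33 ± 0.085, interval from 0.702 to 0.902 times, unadjusted p = 0.00140, adjusted p = 0.188 by edgeR). DESeq2 with default settings called it, with an adjusted p of 0.0155, and adjusted p-values over the other settings ran from 0.0879 to 0.967. The count of flanking genes without overlap was 1 of 9 in homozygous against heterozygous mice, where 14.1% of all genes had no overlap. It was 0 of 9 in homozygous against wild type mice, where 15.4% had none, and 0 of 9 in heterozygous against wild type mice, where 8.68% had none.

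The mean level of Ctgf was highest in heterozygous mice. Heterozygous mice were at 0.22 ± 0.084 against wild type on the log2 scale (unadjusted p = 0.0203, adjusted p = 1.00 by edgeR), a value that was 0.13 both without heterozygous replicate 1 and without the 3 libraries high in vomeronasal reads, and 0.31 without wild type replicate 2. The homozygous mice were at -0.11 ± 0.085 against wild type (adjusted p = 0.742, interval from 0.816 to 1.05 times), or -0.013 without wild type replicate 2. Without heterozygous replicate 1, the highest library, the homozygous to heterozygous difference was -0.24 with an adjusted p of 0.529. Without the 3 libraries high in vomeronasal reads it was -0.11 with an adjusted p of 0.967, and the homozygous to wild type difference was 0.013. Connective tissue markers (Col1a1, Col1a2, Col3a1, Dcn, Lum, Fn1, Postn and Pdgfra, 8 of 8 detected) summed to between 12832 and 15075 CPM in heterozygous libraries, highest in replicate 1, and to between 11804 and 12888 CPM in homozygous libraries. In wild type libraries they summed to between 12114 and 13881 CPM, lowest in replicate 2, where Ctgf was highest. Endothelial markers (Pecam1, Cdh5, Kdr, Flt1 and Tek, 5 of 5 detected) summed to between 94.4 and 99.3 CPM in heterozygous, 82.3 and 90.0 CPM in homozygous and 93.7 and 96.5 CPM in wild type libraries. None of these 13 marker genes was called, and the part of such cells in the Ctgf difference was not tested. In a bulk sample fewer cells of a type and less RNA per cell cannot be told apart. The exons of Ctgf also share bases with an antisense gene, Gm15270, and the strand setting of the counting is not given in the sources used here, so reads from the overlap could belong to either.

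**Figure D2:**
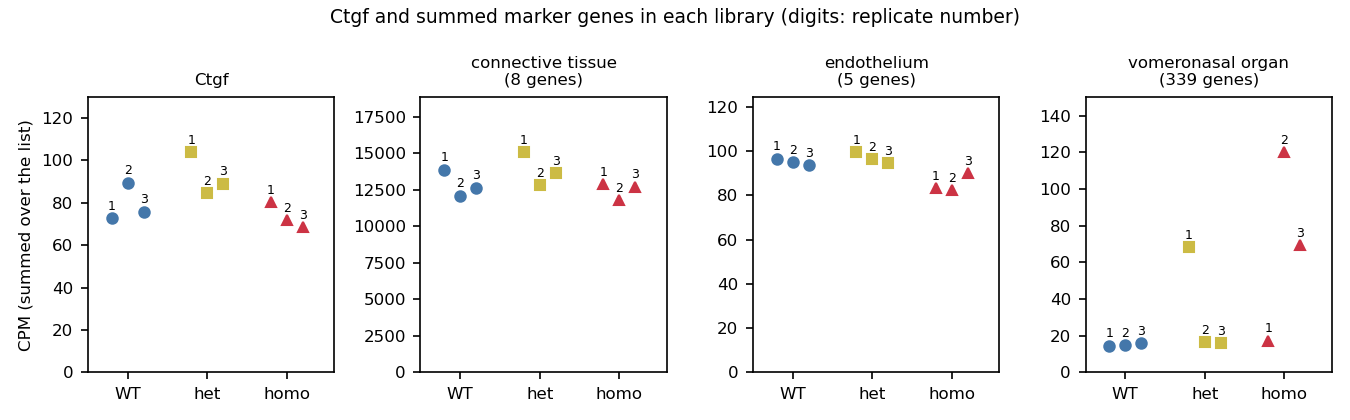
CPM of Ctgf and summed CPM of the connective tissue, endothelial and vomeronasal marker lists (y axes, all from 0) in each library by genotype (x axes); digits are replicate numbers. Heterozygous replicate 1 is highest for Ctgf and for connective tissue, and the 3 homozygous libraries are lowest for endothelium, at 82.3 to 90.0 CPM.

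Ctgf belongs to the CCN family of matricellular proteins. The family had 6 members tested, and all 6 had log2 fold changes below 0 in homozygous against wild type mice, between -0.21 and -0.021 with a median of -0.12, with 0 called. Cyr61, encoded on another chromosome, had the lowest unadjusted p of the 6 (log2 fold change -0.21 ± 0.096, unadjusted p = 0.0462, adjusted p = 0.531). Against heterozygous mice 4 of the 6 were lower and 2 higher in homozygous mice, and 3 (Ctgf, Cyr61 and Wisp1) had an unadjusted p under 0.05, beside 10.4% of all genes. The numbers of higher and lower genes given for this and the other families were the same when libraries were scaled by DESeq2 size factors in place of TMM.

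Enpp1 and Enpp3 are the farthest listed genes, 699 kb and 834 kb from the gap. Enpp1 encodes an ectoenzyme that makes pyrophosphate, an inhibitor of mineralization, from ATP. It stood at 51.2, 46.3 and 59.8 CPM in wild type, at 60.7, 51.7 and 56.9 CPM in heterozygous and at 47.8, 56.1 and 55.2 CPM in homozygous libraries. The genotypes overlapped, and wild type replicate 2 was the lowest library. The log2 fold change in homozygous against wild type mice was 0.018 ± 0.087 (adjusted p = 0.976), with an interval from 0.890 to 1.15 times the wild type level. The sign turned to -0.14 with vomeronasal reads as a covariate, to -0.13 without the 3 libraries high in them, and in 3 of the 9 fits that left out 1 library.

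Enpp3 encodes a related ectonucleotidase that is used as a marker of basophils and mast cells and is also found on epithelia. It stood at 3.45, 2.81 and 4.33 CPM in wild type, at 3.88, 4.12 and 2.16 CPM in heterozygous and at 2.50, 3.74 and 2.05 CPM in homozygous libraries. In each genotype the libraries ranged widely, and the groups overlapped. In homozygous against wild type mice Enpp3 had a log2 fold change of -0.35 ± 0.26 (adjusted p = 0.728), with an interval from 0.535 to 1.15 times the wild type level. Without wild type replicate 3 it was -0.17, without homozygous replicate 3 -0.18 and without homozygous replicate 2 -0.62, and with vomeronasal reads as a covariate it was -0.65. Of the 7 genes of the ENPP family tested, 2 were higher and 5 lower in homozygous than in wild type mice, with a median log2 fold change of -0.14 and 0 called.

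**Figure D3:**
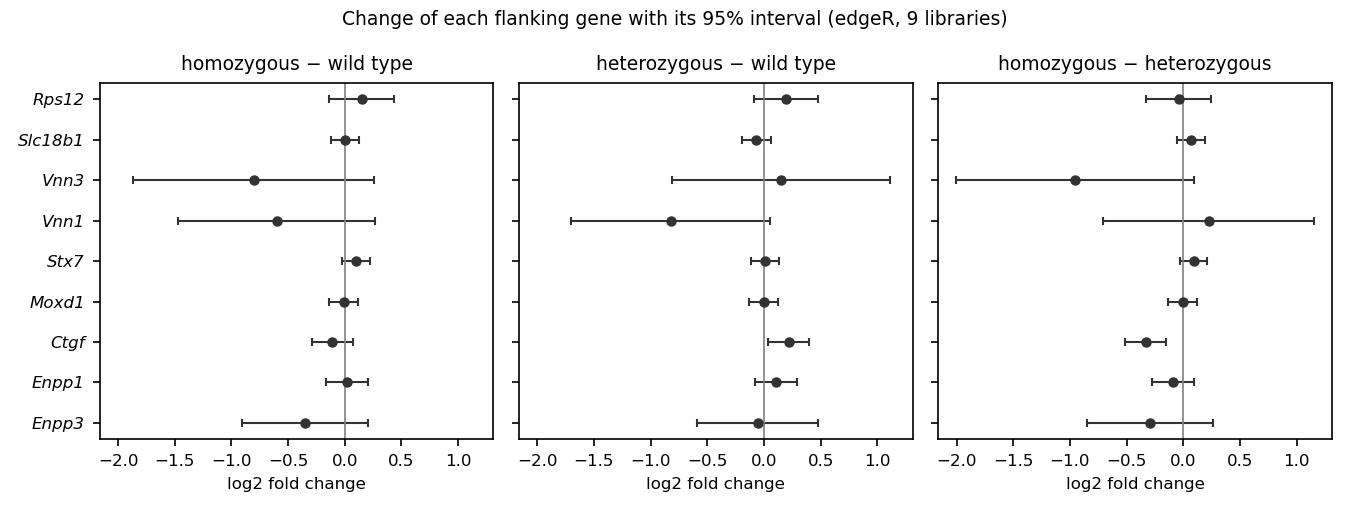
log2 fold change (x axes) of each flanking gene (y axis, in chromosomal order) with its 95% interval from edgeR, for the 3 pairs of genotypes. Every interval holds 0 except those of Ctgf in the pairs with heterozygous mice, and the widest belong to Vnn3 and Vnn1.

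The precision of these comparisons followed the number of reads. Stx7, with 28238 reads over the 9 libraries, had an interval of ±0.12 on the log2 scale in homozygous against wild type mice. Slc18b1 with 9679 reads and Moxd1 with 8110 reads also had intervals of ±0.12 and ±0.13. Enpp1 and Ctgf had more reads than Moxd1 and wider intervals, of ±0.19 and ±0.18, and their libraries of the same genotype also differed more, with coefficients of variation of 10.03% and 10.5%. Rps12 had an interval of ±0.29 and Enpp3 of ±0.55. For Vnn1, with 237 reads, it was ±0.87, and for Vnn3, with 114 reads, ±1.06. The genes whose level in the whole MOE is best bounded were therefore Slc18b1 on the enhancer's side and Stx7 and Moxd1 on the other. The genes nearest the gap were those measured least well. All intervals are for the average over the whole tissue, of which neurons with olfactory TAARs are a small part. A change confined to those neurons could lie within the intervals and was not tested.

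**Figure D4:**
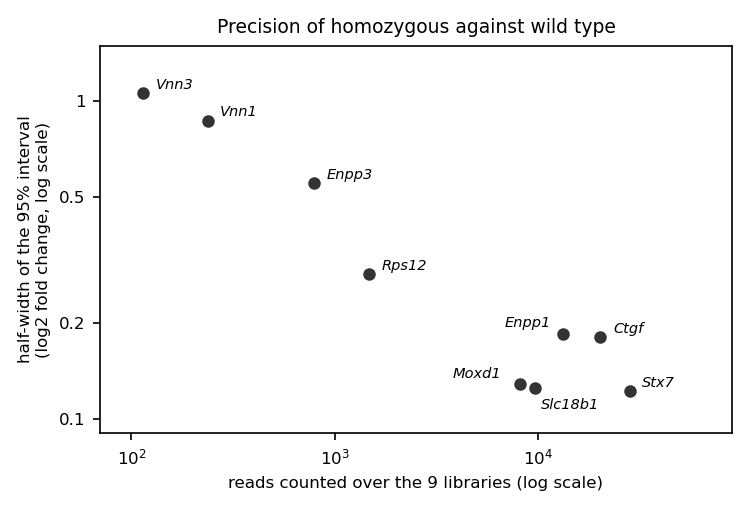
Half-width of the 95% interval of the log2 fold change in homozygous against wild type mice (y axis, log scale) against the reads counted over the 9 libraries (x axis, log scale), 1 point per flanking gene. The width falls from 1.06 for Vnn3 at 114 reads to 0.12 for Stx7 at 28238 reads, and Ctgf and Enpp1 lie above Moxd1 although they have more reads.

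Within each library, the reads of Taar2 to Taar5 were also set against those of each flanking gene, a ratio that does not depend on how libraries are scaled to each other. The Taar sum was set to 3 reads in each homozygous library, and the counts of the flanking genes were used without allowance for counting error. The ratio was then 49.1-fold lower in homozygous than in wild type mice against Vnn3 and 57.0-fold lower against Vnn1. Against Slc18b1 it was 83.6-fold lower, against Stx7 89.2-fold, and against Rps12 91.9-fold lower. Taar2 to Taar5 were taken as the genes known to lose their reads, so the fall itself is no test of the flanking genes. The values are given as a description and are not strict bounds.

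The listed genes were also placed among all genes around the cluster. Within 1 Mb of the span from Taar1 to Taar9, 15 genes outside the Taar family were tested and edgeR called 0 in each of the 4 comparisons, while DESeq2 called Ctgf as above. Of the 15, 7 had a log2 fold change above 0 and 8 below 0 in homozygous against wild type mice. Their median log2 fold change was -0.0081, beside -0.00057 over all genes tested. The 6 that are not listed members were Eya4, Snora33, Snord100, Med23, Mir6905 and Arg1. By edgeR's unadjusted p in homozygous against wild type mice, Med23, a subunit of the Mediator complex, ranked first of these with a log2 fold change of -0.11 (adjusted p = 0.625). Snord100 followed at -1.07 (adjusted p = 0.643) and Snora33 at 0.86 (adjusted p = 0.736). The intervals of the small RNAs were wide, from -2.44 to 0.30 for Snord100 and from -0.51 to 2.23 for Snora33, both of which lie inside Rps12. Within 2 Mb 25 genes were tested, and edgeR called 0 in homozygous against wild type mice, with 1 at an unadjusted p under 0.05.

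**Figure D5:**
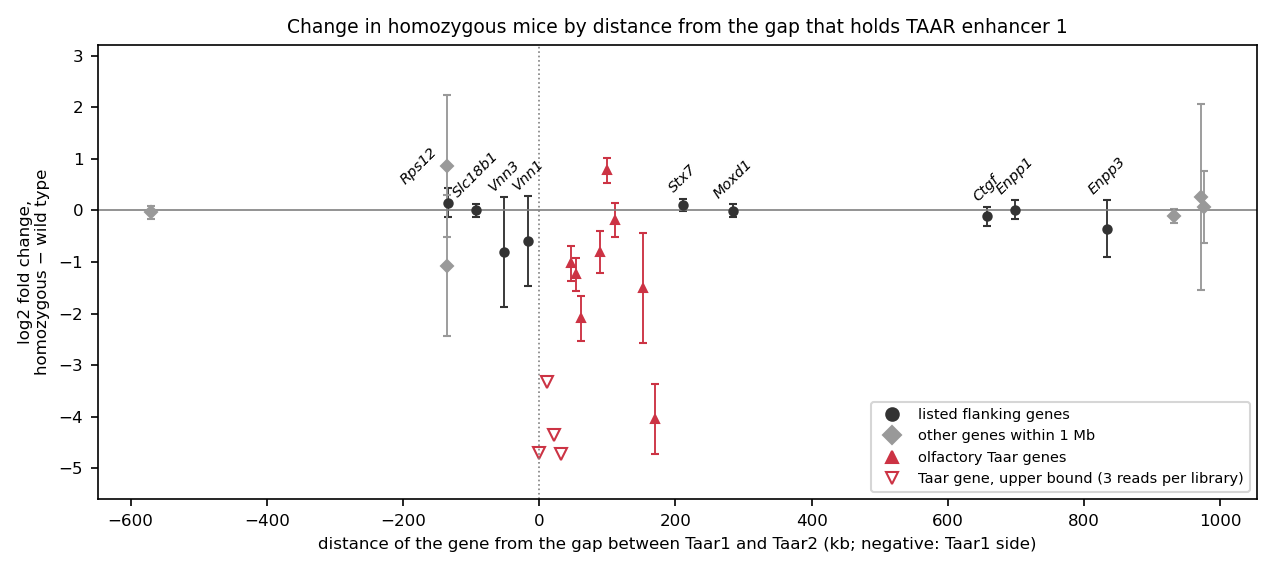
log2 fold change in homozygous against wild type mice (y axis) against distance from the 17.1 kb gap between Taar1 and Taar2 (x axis, kb; negative on the side of Taar1), with 95% intervals. Black circles are the listed flanking genes, grey diamonds the other genes within 1 Mb and red triangles the olfactory Taar genes, open where the value is an upper bound set by 3 reads per homozygous library; Taar8a and Taar8c, at 3 reads or fewer in each homozygous library and not called, are not drawn. Taar2 to Taar5 and Taar9 lie far below 0, while Taar7e lies above 0 and the interval of Taar7f holds 0. The flanking genes on both sides have intervals that hold 0.

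The flanking genes covered a wide range of expression in the MOE. Per kilobase of exon, Ctgf stood at 28.6 CPM over the 9 libraries and Stx7 at 25.7 CPM, and the ranges of the pair over libraries overlapped. Slc18b1 at 12.05 and Moxd1 at 10.3 CPM per kb came next, followed by Enpp1 at 5.26 and Rps12 at 2.94. The ranges of these 4 did not overlap with each other or with those of the pair above. The place of Rps12 is one of counted reads and not of expression. Only 18.4% of its 100-base stretches occur in no other annotated gene. The exon length used for it was 2027 bases, beside 584 in its coding transcript. Enpp3 at 0.536, Vnn1 at 0.390 and Vnn3 at 0.256 CPM per kb could not be set in order, as their ranges overlapped, and Taar1 was at the bottom with 1 read.

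With genotype means removed, the tested genes whose levels over the 9 libraries were most like those of Stx7 were A130077B15Rik (Pearson r = 0.99), Fyttd1 (0.99) and Sh3glb1 (0.99). For Ctgf they were Zfyve1 (0.97), Smad7 (0.97) and Pipox (0.96), and for Enpp3 they were Fgfr2 (0.99), Arhgap20 (0.99) and Mcu (0.98). The highest values for the other flanking genes were 0.99 for Rps12 (Abcc10), 0.97 for Slc18b1 (Tceal6), 0.98 for Vnn3 (1810020O05Rik), 0.97 for Vnn1 (Eef1e1), 0.99 for Moxd1 (Olfr466) and 0.99 for Enpp1 (Higd2a). None of these lies among the genes around the cluster. Each value is the highest of those computed against all other tested genes over 9 libraries that share tissue and preparation, and it is given as a description only.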

How the data were processed

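Bulk RNA-seq of MOE from 9 mouse libraries (3 per genotype) was used, with genotype taken from the sample titles. Per the labels, libraries were directional with polyA selection. Per the submitters' processing notes the authors used Trimmomatic 0.36, HISAT2 2.1.0 on GRCm38 (mm10), HTSeq 0.6.1p1 and DESeq2 1.20.0. The paper names featureCounts as the counter, while the table ends in 5 rows of totals named as htseq-count names them. The annotation and the strand setting are not given in the sources used here. The deposited table holds raw counts for 24421 gene rows. Of the reads it accounts for, 57.4 to 60.0% were in genes, 21.6 to 22.4% in no feature, 1.29 to 1.35% ambiguous and 16.9 to 19.4% not unique, and these totals were left out. A second deposited table of size-factor scaled counts was not used.

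Genes with at least 10 counts in all (20213) were tested in 1 edgeR fit of all 9 libraries (version 4.0.16, R 4.3.3, quasi-likelihood F test, TMM scaling, no term but genotype), and p-values were adjusted over all genes (Benjamini-Hochberg). CPM values use TMM library sizes, and limits from 3 reads use raw ones. The upper bounds drawn for Taar genes by distance are an exception and use TMM sizes. Intervals are 95% intervals from the F statistic and its degrees of freedom. The planned exact permutation test of the ratio of Taar reads to a flanking gene is not reported, since 3 against 3 libraries cannot go below p = 0.1 and the Taar genes were chosen for their loss. Positions, exons and shared stretches are from GENCODE M21 (GRCm38), where 23952 gene rows were placed. Windows before the listed gene starts are from RefSeq (GRCm38.p6), and the starts were not checked. Exon lengths are the union of all annotated transcripts. The p-values measure the spread between libraries, and replicates of a genotype differed beyond counting noise (chi-square per degree of freedom 4.34 to 15.1). The steps were tested on simulated data with known changes.

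As alternatives the fit was repeated with a replicate block, with every gene kept, with filterByExpr, with size factors from DESeq2, with DESeq2 1.42.0 itself at its defaults, with only the 6 libraries compared, with vomeronasal reads as a covariate and without each library. Leaving out the 3 libraries high in vomeronasal reads together was chosen after seeing the data. The members, gene lists and tests were chosen with earlier results of these data known. Named genes are the members, Taar2 to Taar5 and Taar9 as references, any called gene and the 3 with the smallest p within 1 Mb, and the 3 genes most like each member (here in full for Stx7, Ctgf and Enpp3 and the first of each other member). Genes of a family, further Taar genes among them, were named in addition after their values were seen. The lists of marker and family genes are described by counts alone, with no set test.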

Additional observations from a re-analysis of the deposited data

How the results depend on the processing

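The number of flanking genes called stayed at 0 in all 4 comparisons with DESeq2 size factors in edgeR, without a filter on low counts, with filterByExpr, with vomeronasal reads as a covariate, without each library in turn (lowest and highest count 0) and, as an alternative chosen after seeing the data, without the 3 libraries high in vomeronasal reads, and in the 3 pairs with only the 6 libraries compared. With a replicate block it also stayed at 0 in all 4. Deviations of same-numbered libraries correlated between -0.25 and 0.45, and libraries of different numbers were not compared. Whether replicate numbers stand for a pairing was therefore not settled, and the block changed no call. DESeq2 with default settings called 1 flanking gene, and 1 gene within 1 Mb, in homozygous against heterozygous mice and 1 each for any difference. In both cases it was Ctgf (log2 fold change -0.33 in homozygous against heterozygous mice), and the cause was not tested. DESeq2 gave an adjusted p to 5 of the 9 genes in homozygous against wild type mice.

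Of 459 fits of a single gene, 425 kept their direction and side of the threshold, 33 changed sign and 1 gained a call. All sign changes were of values that did not pass the test. With vomeronasal reads as a covariate, homozygous against wild type mice gave -0.063 for Slc18b1, 0.025 for Moxd1 and -0.14 for Enpp1, heterozygous against wild type mice 0.012 for Moxd1, and homozygous against heterozygous mice 0.032 for Rps12, -0.11 for Vnn1 and 0.013 for Moxd1. Without the 3 libraries high in vomeronasal reads, homozygous against wild type mice gave -0.050 for Slc18b1, 0.0019 for Moxd1, 0.013 for Ctgf and -0.13 for Enpp1, and heterozygous against wild type mice 0.035 for Moxd1. This leaves 1 homozygous library, assumed to vary like the others. With only the 6 libraries compared, Moxd1 stood at 0.00027 in homozygous against heterozygous mice. Leaving out each library gave, for homozygous against wild type mice, -0.036 to 0.033 for Slc18b1, -0.034 to 0.024 for Moxd1 and -0.066 to 0.13 for Enpp1. For heterozygous against wild type mice it gave -0.14 to 0.51 for Vnn3, -0.015 to 0.031 for Stx7, -0.038 to 0.035 for Moxd1 and -0.22 to 0.19 for Enpp3. For homozygous against heterozygous mice it gave -0.14 to 0.076 for Rps12, -0.20 to 0.53 for Vnn1 and -0.043 to 0.031 for Moxd1. Depth limits Taar1, Vnn1 and Vnn3 most.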
